A study of Mus musculus with 16 samples.

Results

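The genes described here encode the subunits of the oxidative phosphorylation system of mitochondria, measured in mouse embryonic hearts with or without a Cre-driven deletion of the transcription factor genes Meis1 and Meis2 in heart muscle cells. They were chosen by gene name alone, as the listed genes of the Ndufa, Ndufb, Ndufc, Ndufs, Ndufv, Sdh, Uqcr, Cox4 to Cox8 and Atp5 families, Cyc1, Cycs and the protein-coding mt- genes. This rule gave 95 of the 16118 listed genes, 82 encoded in the nucleus and 13 in mitochondrial DNA, and all 95 passed the minimum of a mean of 1 CPM (read counts scaled by library size) used for testing. The nuclear members comprised 35 subunits of complex I, 4 of complex II, 9 of complex III, 16 of complex IV including Ndufa4, 15 of complex V and the electron carrier Cycs. Cox7a2l and Atp5s matched the names but were kept apart, since they are not core parts of the complexes. The mitochondrial members were 7 subunits of complex I, 1 of complex III, 3 of complex IV and 2 of complex V. Ndufab1, the acyl carrier subunit of complex I, was not matched by the rule.

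RNA was sequenced from the atria and the ventricles of 8 embryos at E15.5, late in gestation, with 1 library of each chamber per embryo, to learn what the loss of Meis1 and Meis2 changes in each chamber. The double knockout (dKO) embryos, 4 in number, carried floxed alleles of Meis1 and of Meis2 on both chromosomes and an α-MHC-Cre transgene (aMHC tg/wt), which is active in cardiomyocytes. The 4 control embryos carried the same floxed alleles and no Cre (aMHC +/+), so every embryo was homozygous for both floxed alleles and no embryo carried Cre without them. Only cardiomyocytes are targeted by this Cre, whereas the RNA came from whole atria or whole ventricles, freed of the outflow tract, with all their cell types. Each library was made from 20 ng of total RNA of 1 embryo. The protocol speaks of a dKO and a control embryo from each of 4 litters, but the first number of the sample titles splits the embryos otherwise, into 1 dKO embryo alone, 2 dKO with 2 control embryos, and 1 dKO with 2 control embryos.

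Oxidative phosphorylation passes electrons from NADH (complex I) and succinate (complex II) through complex III and cytochrome c to oxygen at complex IV, and the proton gradient so made drives ATP synthesis at complex V. Most subunits are made from nuclear genes and imported, while a small set of hydrophobic core subunits is transcribed from both strands of mitochondrial DNA as long precursors that are then cut apart. Complex II is the exception, with nuclear subunits only. The fetal heart still draws much of its energy from glycolysis, and the mitochondria of its myocytes mature around and after birth. Several complex IV subunits exist as a widespread form and a form typical of heart and skeletal muscle.

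The libraries held between 7.88 and 23.0 megareads, and 3 reads in a library, below which a gene was not taken as detected, were worth between 0.11 and 0.312 CPM. Myl2, the ventricular myosin light chain, lay between 2948 and 4417 CPM in all ventricles and between 12.5 and 38.8 CPM in all atria, and Sln, the atrial sarcolipin, lay between 1.98 and 5.41 CPM in all ventricles and between 222 and 430 CPM in all atria, so the chamber labels fitted their markers. Meis1 averaged 26.1 ± 3.19 CPM in dKO atria and 40.4 ± 2.61 CPM in control atria (SD, n = 4 each; limma log2 difference -0.62, adjusted p = 0.00135), but 40.9 ± 2.41 CPM in dKO ventricles and 41.5 ± 3.96 CPM in control ventricles. Meis2 averaged 23.4 ± 2.85 CPM in dKO ventricles and 39.2 ± 3.46 CPM in control ventricles (log2 difference -0.73, adjusted p = 0.0011), but 26.5 ± 1.9 CPM in dKO atria and 25.4 ± 2.05 CPM in control atria. Each targeted gene was therefore lower in only 1 chamber, in counts that cover the whole gene and not the floxed exons alone. Whether the separate embryos of a group came from separate litters is not certain, and the p-values measure the spread between these embryos.

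Transcripts from mitochondrial DNA stood far above those of the nuclear subunits. Levels were divided by exon length, merged over all annotated transcripts of a gene, which can exceed the length of its main transcript. The median over all 16 libraries was 3751 CPM per kb for the 13 mitochondrial members, with a range of 659 to 7603. For the 82 nuclear members it was 87.9 CPM per kb, with a range of 4.29 to 633. mt-Co1, the catalytic subunit of complex IV, was highest at 7603 CPM per kb, and mt-Nd3 of complex I was lowest of the mitochondrial members at 659 CPM per kb. By this divisor the lowest mitochondrial member lay above the highest nuclear one, Atp5b, at 633 CPM per kb. Atp5b encodes the catalytic β subunit of the ATP synthase. Its merged exons span 4.24 kb, against 0.348 kb for mt-Nd3. The order may differ with the lengths of single transcripts, which were not used. Libraries were made from polyadenylated RNA, and a level per length also depends on how fully each transcript carries a poly(A) tail, which was not tested.

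Among nuclear members the level per length, over the same merged exons, differed by complex. Medians were 66.3 CPM per kb for complex I, 105 for complex II, 155 for complex III, 156 for complex IV and 125 for complex V. Atp5a1 followed Atp5b at 565 CPM per kb, and Cox8a (362 CPM per kb), Cox6b1 (346 CPM per kb) and Cox4i1 (305 CPM per kb) led complex IV. Cycs, cytochrome c itself, stood at 25.3 CPM per kb, although near-identical copies described further on hold most of its reads. The lowest members were Cox6b2, a form known from testis, at 4.29 CPM per kb, Atp5s at 4.42 CPM per kb and Cox4i2, a form known from lung, at 4.44 CPM per kb. Within groups of 4 libraries the coefficient of variation of a member was similar for both genomes, with a median of 8.02% for mitochondrial and 7.68% for nuclear members.

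Promoters of the nuclear members were read from RefSeq (GRCm38.p6) in windows of 250 bases before to 50 bases after each gene start. Of the 82 nuclear members, 68 were matched. Members with no entry included Atp5a1, Cox4i1, Cox4i2, Cox6a2, Cox6c, Cyc1, Ndufa2, Ndufb9, Ndufs1, Sdhc, Uqcrb, Uqcrc2 and Uqcrq. A consensus motif of NRF1, a long known activator of respiratory genes, whose letters show in the sequences printed next, occurred on either strand in 23.5% of the 68 windows, against 4.78% of all 27025 windows. The YY1 motif AAGATGGC occurred in 13.2% of member windows and 2.88% of all windows, the GABP motif CCGGAAG in 22.1% and 9.12%, and the ERR motif AAGGTCA in 11.8% and 4.66%. The MEIS motif TGACAG was found in 20.6% of member windows and 19.3% of all windows, and a consensus motif of MEF2, a myocyte factor, in 1.47% and 3.7%. Median GC content was 57.8% for member windows and 52.7% for all windows, so motifs rich in G and C have more chance to match among the members. A match describes letters and shows neither binding nor control.

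Stretches upstream of 4 members that recur in the results are printed 5′ to 3′ on the gene's strand, with motif matches in capitals. Ndufa11 was the only member called by limma in dKO atria, and Sdha had the largest difference between chambers. Cox6a1 is the widespread form of a complex IV pair, and Cox8b is a heart and muscle form whose printed stretch held the MEIS letters. The full window of Cox6a1 also held the MEIS and GABP letters, outside its printed stretch. The capitals mark the NRF1 letters, read on the opposite strand in Sdha and Cox6a1, and in Cox8b the MEIS letters. Stretches were ended before the start of the gene in both RefSeq and GENCODE M21.
Ndufa11, chr17:56717612-56717761, plus strand: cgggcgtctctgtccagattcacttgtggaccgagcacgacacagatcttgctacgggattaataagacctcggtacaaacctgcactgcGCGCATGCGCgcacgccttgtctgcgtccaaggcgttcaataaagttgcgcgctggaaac
Sdha, chr13:74350281-74350390, minus strand: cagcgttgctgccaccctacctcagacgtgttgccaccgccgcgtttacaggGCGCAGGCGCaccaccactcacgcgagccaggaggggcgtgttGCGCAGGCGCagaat
Cox6a1, chr5:115348982-115349108, minus strand: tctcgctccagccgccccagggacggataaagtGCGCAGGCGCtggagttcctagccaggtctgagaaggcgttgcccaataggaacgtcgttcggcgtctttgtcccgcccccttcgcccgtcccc
Cox8b, chr7:140900447-140900596, minus strand: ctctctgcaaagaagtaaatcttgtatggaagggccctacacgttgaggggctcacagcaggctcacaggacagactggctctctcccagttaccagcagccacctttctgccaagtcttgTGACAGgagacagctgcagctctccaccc

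In control embryos most subunit genes of every complex were higher in ventricles than in atria. Of the 95 members, 77 were higher and 1, Cox6a2, was lower at a limma adjusted p under 0.05 ("called"), which is 82.1% of members against 46.9% of all 13950 genes tested (26.4% of all genes were called higher and 20.5% lower). Of the calls over all genes 56.2% were higher, and 41.0% when libraries were scaled to nuclear genes only, where 69 members were called higher and 1 lower. The median log2 difference was 0.40 for the 82 nuclear members and 0.51 for the 13 mitochondrial members, against 0.03 for all genes tested and 0.08 for the 7276 genes that averaged 20 CPM or more, of which 55.3% were called. With libraries scaled to nuclear genes only, the medians were 0.31 for nuclear and 0.42 for mitochondrial members, against -0.05 for all genes tested. Ventricular libraries did not overlap the atrial ones for 75 members on the higher side and 1 on the lower side, where 24.4% and 18.9% of all genes did so. A whole chamber holds several cell types, and more myocytes in the tissue cannot be told apart from more of these transcripts in each myocyte. Of the 12 myocyte markers 7 were called higher and 2 lower (median 0.29). Their summed level lay between 21760 and 26366 CPM in control ventricles and between 25326 and 29257 CPM in control atria. Myh6 weighs heavily in this sum, against the direction of most of the list. It averaged 2767 CPM in control ventricles and 11611 CPM in control atria (log2 difference -2.19). Epicardial markers were called lower for 6 of 7 (summed level 105 to 145 CPM in ventricles and 338 to 408 CPM in atria). Fibroblast markers were called higher for 1 and lower for 5 of 9 (4124 to 4712 CPM in ventricles and 5369 to 7195 CPM in atria). All 4 tested neural and glial markers were called lower (median -1.54), as were 2 of 8 macrophage and 2 of 8 erythroid markers, while endothelial markers were called higher for 4 and lower for 4 of 8 and smooth muscle and pericyte markers higher for 4 and lower for 2 of 7. The part of cell composition in the chamber difference was not tested.

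**Figure D1:**
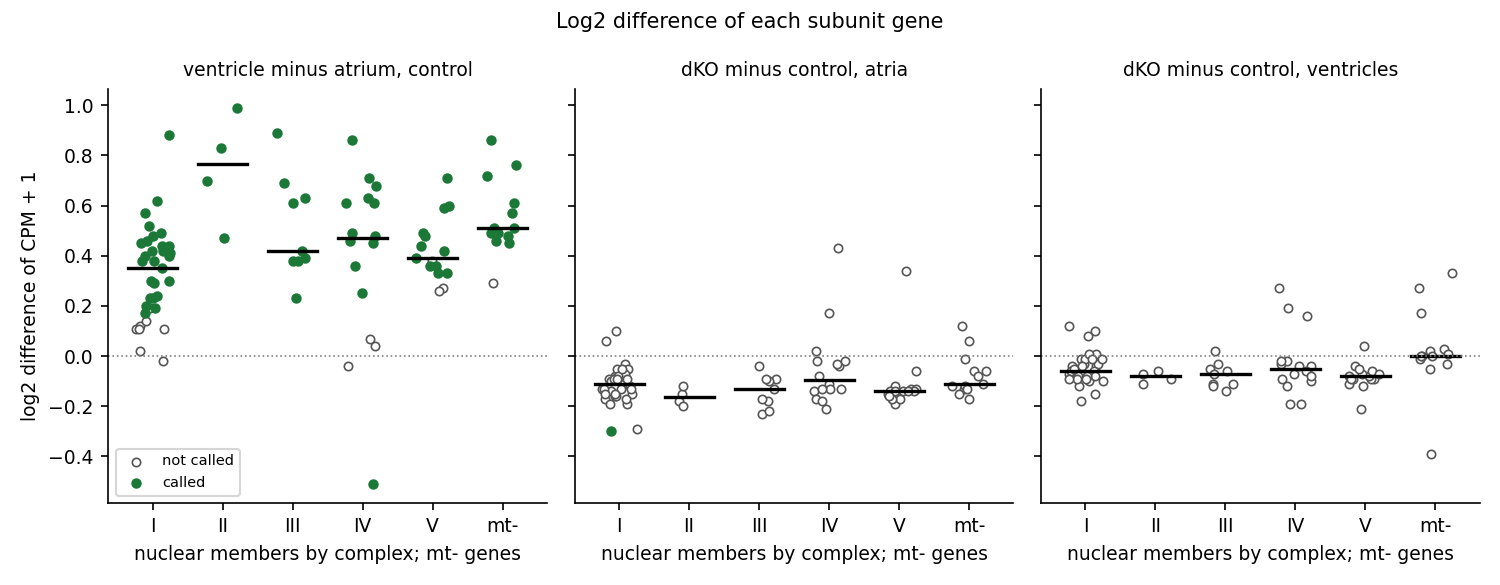
Log2 difference of CPM + 1 for each subunit gene, as ventricle minus atrium in control embryos and as dKO minus control in atria and in ventricles, by complex for nuclear genes and together for the 13 mt- genes. Filled points passed a limma adjusted p of 0.05, open points did not, and bars are medians; in the chamber panel the points lie mostly above 0, with Cox6a2 at -0.51, and in the knockout panels Ndufa11 is the only filled point.

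Complex II, which oxidizes succinate and has no mitochondrially encoded subunit, showed the largest median, 0.76, with 4 of 4 members called. Sdha, its flavoprotein, had 623, 689, 614 and 662 CPM in control ventricles, against 320, 333, 304 and 347 CPM in control atria. The chambers did not overlap, and the log2 difference was 0.99 ± 0.06 (SE; limma adjusted p = 9.33e-11). Sdhd, a membrane anchor, differed by 0.83 and Sdhb, the iron-sulfur subunit, by 0.70, whereas the other anchor Sdhc differed by 0.47. Summed over complex II the level averaged 1429 ± 70.1 CPM in control ventricles and 820 ± 61.4 CPM in control atria (SD, n = 4 each).

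Complex I, which takes electrons from NADH, had 27 of 35 nuclear members called higher and none lower, with a median of 0.35. Its 7 nuclear core subunits had a median of 0.42 (6 called) and its 28 accessory subunits one of 0.30 (21 called). Ndufs6, an accessory subunit close to the NADH-oxidizing arm, had the largest difference of the nuclear complex I genes. It had 94.2, 102, 95.3 and 108 CPM in control ventricles, against 50.4, 54.5, 49.0 and 62.4 CPM in control atria, a log2 difference of 0.88 ± 0.07 (limma adjusted p = 6.95e-09). Its exons overlap those of Mrpl36 on the opposite strand, and the question whether counting used the strand is not answered in the sources used here. Ndufv1, which carries the NADH-binding site, differed by 0.62, and Ndufs1, the largest core subunit, by 0.40. The 8 complex I members that were not called ranged between -0.02 (Ndufb11) and 0.19 (Ndufa2), and Ndufa11 was among them at 0.12.

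Complex III, which hands electrons to cytochrome c, had 9 of 9 nuclear members called, with a median of 0.42. Cyc1, its cytochrome c1, had 361, 383, 335 and 384 CPM in control ventricles, against 192, 199, 168 and 228 CPM in control atria. These values did not overlap, and the log2 difference was 0.89 ± 0.07 (limma adjusted p = 6.11e-09). The core proteins Uqcrc1 and Uqcrc2 differed by 0.69 and 0.63, and the Rieske iron-sulfur protein Uqcrfs1 by 0.61. The small subunit Uqcrb had the smallest difference of the complex, 0.23. The carrier Cycs differed by 0.45 ± 0.11 (limma adjusted p = 0.00188).

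Complex V, the ATP synthase, had 12 of 15 members called, with a median of 0.39. Atp5g3, a gene for the membrane-embedded c ring, had 712, 749, 681 and 735 CPM in control ventricles, against 425, 447, 394 and 492 CPM in control atria, a log2 difference of 0.71 ± 0.07 (limma adjusted p = 6.54e-08). Atp5f1 of the stalk differed by 0.60 and the catalytic pair Atp5a1 and Atp5b by 0.59 and 0.48. The c ring protein is also made from Atp5g1, which differed by 0.44, and Atp5g2, at 0.38 with an adjusted p of 0.0925. Per length Atp5g3 made up 82.1 ± 0.51% of the 3 genes' level in control ventricles and 79.1 ± 0.714% in control atria (SD, n = 4 each), and its share was higher in the ventricle in each of the 8 embryos. Atp5g2 was counted here without its near-identical copy Gm10175, which held 90.1% of their joint level. With that copy the share of Atp5g3 would be lower.

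Complex IV, which reduces oxygen, had 12 of 16 nuclear members called higher and 1 lower, with a median of 0.47, and its paired isoforms differed in direction. Cox6a1, the widespread form, had 244, 250, 278 and 275 CPM in control ventricles, against 134, 132, 144 and 168 CPM in control atria (log2 difference 0.86 ± 0.07, limma adjusted p = 5.75e-09). Cox6a2, the heart and muscle form of the same subunit, had 126, 130, 122 and 141 CPM in control ventricles, against 164, 197, 174 and 209 CPM in control atria (log2 difference -0.51 ± 0.07, limma adjusted p = 5.64e-06). Both genes separated the chambers without overlap, in opposite directions. Per length, Cox6a2 held 33.9 ± 1.83% of the pair in control ventricles and 57.1 ± 2.36% in control atria (SD, n = 4 each), and the share was lower in the ventricle in all 8 embryos. In dKO embryos the share was 39.6 ± 1.4% in ventricles and 58.2 ± 0.685% in atria.

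The other isoform pairs did not all follow Cox6a. Cox7a2, the widespread form, differed by 0.68 ± 0.11 (limma adjusted p = 6.03e-05), while Cox7a1, the heart and muscle form, was at 0.04 ± 0.10 (adjusted p = 0.788), and Cox7a1 held 32.1 ± 0.756% of that pair in control ventricles and 42.5 ± 3.77% in control atria. Cox8a and Cox8b, the widespread and the heart and muscle form, were both higher, by 0.61 ± 0.08 and 0.63 ± 0.11, so that Cox8b held 18.8 ± 1.39% of its pair in control ventricles and 18.4 ± 0.782% in control atria. Cox8b had 33.7, 42.8, 33.6 and 42.1 CPM in control ventricles, against 22.1, 23.3, 22.8 and 29.0 CPM in control atria, with no overlap. Cox4i1 differed by 0.46 and Cox6b1 by 0.49, and their rarer partners were near the low end of the levels, Cox4i2 at 0.61 ± 0.19 (limma adjusted p = 0.0125, and 0.0761 without control embryo 3) and Cox6b2 at -0.04 ± 0.15. Cox7a2l, a factor of supercomplexes that resembles Cox7a2 in sequence, was at 0.05 ± 0.06. The signs of Cox7a1 and Cox7a2l were negative when libraries were scaled to nuclear genes only, at -0.05 and -0.04. Outside the isoform pairs, Cox5a differed by 0.71 and Cox6c by 0.48.

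**Figure D2:**
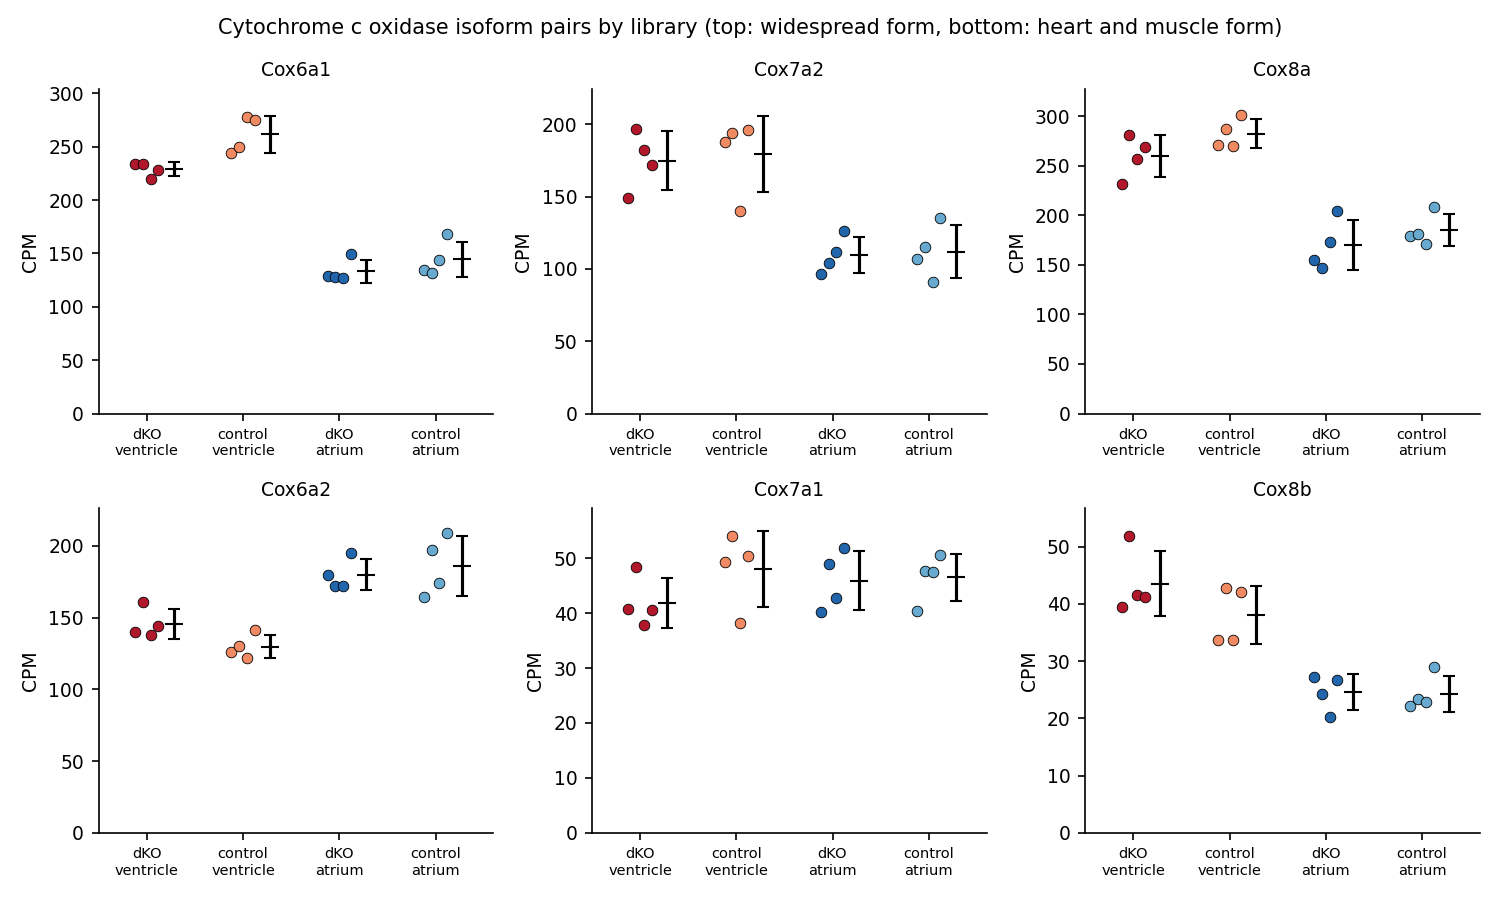
CPM of 3 complex IV isoform pairs in each library, with the mean and SD (n = 4) beside the points, the widespread form above and the heart and muscle form below. Cox6a1 was higher and Cox6a2 lower in ventricles of both genotypes, Cox7a1 overlapped between chambers, and Cox8b was higher in ventricles.

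The mitochondrial members moved in the same direction as the nuclear ones in control embryos. Of the 13, 12 were called higher in ventricles, and mt-Co3 was not (log2 difference 0.29 ± 0.13, limma adjusted p = 0.0837). mt-Nd1, a core subunit of complex I, had 4603, 4838, 4249 and 4742 CPM in control ventricles, against 2757, 2852, 2706 and 2900 CPM in control atria. Its log2 difference was 0.72 ± 0.07 (limma adjusted p = 1.88e-07), and the chambers did not overlap. mt-Nd2 differed by 0.61, mt-Co2 by 0.57, mt-Co1 and mt-Cytb each by 0.51, mt-Atp8 by 0.48 and mt-Nd5 by 0.45. The values for mt-Nd4 and mt-Nd4l were 0.49 and 0.46. mt-Nd6, the member transcribed from the other strand of mitochondrial DNA, differed by 0.49 ± 0.07 (limma adjusted p = 2.19e-05), within the range of the rest. It partly overlaps mt-Nd5 on the opposite strand. Whether counting used the strand is not known, so its reads cannot be placed on its own strand with certainty.

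Summed levels were higher in ventricles for both genomes. Nuclear members summed to 21014, 22070, 20494 and 22145 CPM in control ventricles, against 15019, 15339, 14444 and 16792 CPM in control atria. Mitochondrial members summed to 45848, 50479, 44510 and 48510 CPM in control ventricles, against 32599, 32977, 32903 and 32348 CPM in control atria. Neither sum overlapped between chambers, and the ratios of the means were 1.39 for nuclear and 1.45 for mitochondrial members. All listed genes together summed to 753687 to 782986 CPM in control atria and 823078 to 841274 CPM in control ventricles. As shares of these unequal totals, the ratios of the means were 1.29 for nuclear and 1.34 for mitochondrial members. The mitochondrial sum divided by the nuclear sum was 2.21 ± 0.0535 in control ventricles and 2.13 ± 0.148 in control atria (SD, n = 4 each), less apart than the atrial spread. Embryo by embryo, 82 of 95 members were higher in the ventricle than in the atrium in 4 of 4 control embryos, and 83 of 95 in 4 of 4 dKO embryos, against 33.6% and 29.2% of all genes tested.

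**Figure D3:**
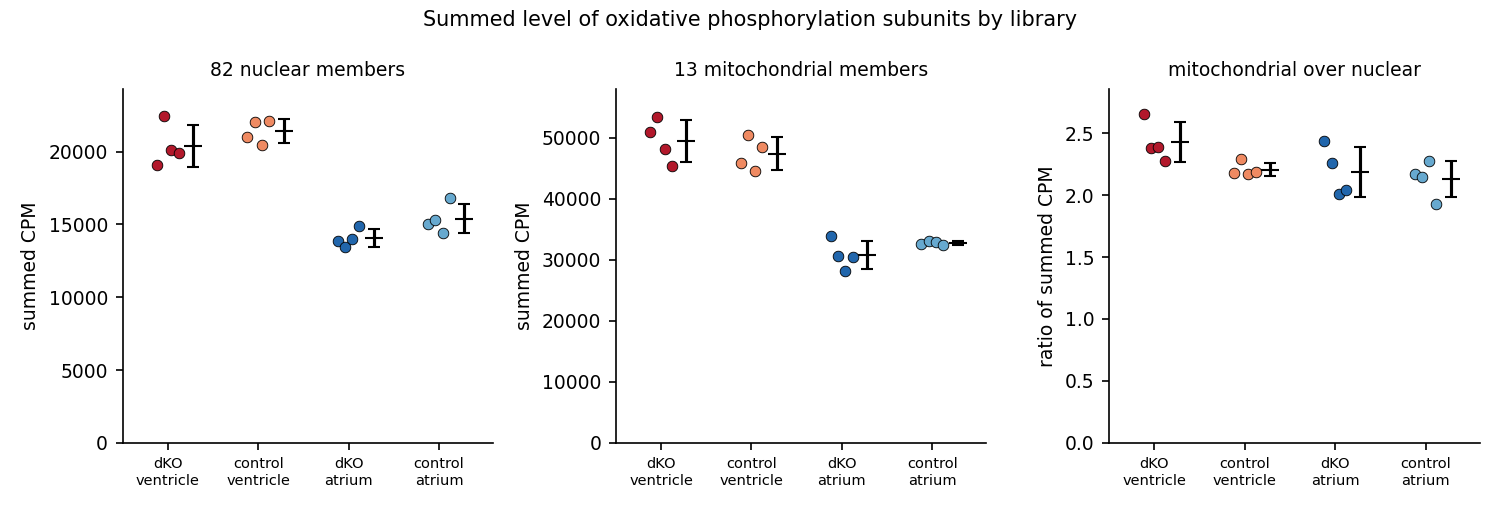
Summed CPM of the 82 nuclear and the 13 mitochondrial members and the ratio of these sums in each of the 16 libraries, with the mean and SD (n = 4) beside the points. All ventricles lie above all atria in both sums, and the ratio lies between 1.93 and 2.66.

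Some members share their sequence with other listed genes, and their single values need care. GENCODE M21 transcripts with at least 97% identity over at least 60 bases were found for 42 of 82 nuclear and 7 of 13 mitochondrial members, and for 31 and 5 members such a copy was itself listed. Gm10925, a nuclear copy identical to mt-Atp6 over 678 bases, averaged 1347 CPM beside 2702 CPM for mt-Atp6. Gm28437 (951 CPM) is a copy of mt-Co3, Gm28661 (405 CPM) of mt-Co2, Gm28438 (198 CPM) of mt-Nd3 and Gm29216 (841 CPM) of mt-Co1. Within groups, mt-Atp6 varied by 20.3%, and the sum of mt-Atp6 and its copy by 8.0%. mt-Nd3 varied by 23.8% alone and by 7.97% with its copy, and mt-Co3 by 15.3% alone and by 7.40% with its copy. How reads were divided between the identical sequences is not given in the sources used here.

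Adding the copies, an alternative chosen after the values were seen, moved some chamber differences toward the mitochondrial median of 0.51 and others away from it. mt-Co3 with its copy was called, at 0.46 (limma adjusted p = 0.000153), mt-Nd3 was at 0.54 where it stood at 0.86 alone, and mt-Atp6 was at 0.51 where it stood at 0.76 alone. mt-Co2 was at 0.72 with its copy, where it stood at 0.57 alone, and mt-Co1 at 0.53, where it stood at 0.51. mt-Nd3 alone had 343, 357, 197 and 373 CPM in control ventricles, against 121, 229, 180 and 164 CPM in control atria, and the chambers overlapped. With the copy the values were 514, 526, 449 and 513 CPM in control ventricles, against 319, 363, 343 and 351 CPM in control atria, without overlap. Among nuclear members, Atp5g2 averaged 19.5 CPM and its copy Gm10175 averaged 178 CPM, 90.1% of both, and the sum was called at 0.30 (limma adjusted p = 0.00145). The 3 listed copies of Cycs held 75.3% of the reads of that set, and Gm3244 held 68.1% of the sum with Ndufb4. With copies added, 79 members were called higher and 1 lower.

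**Figure D4:**
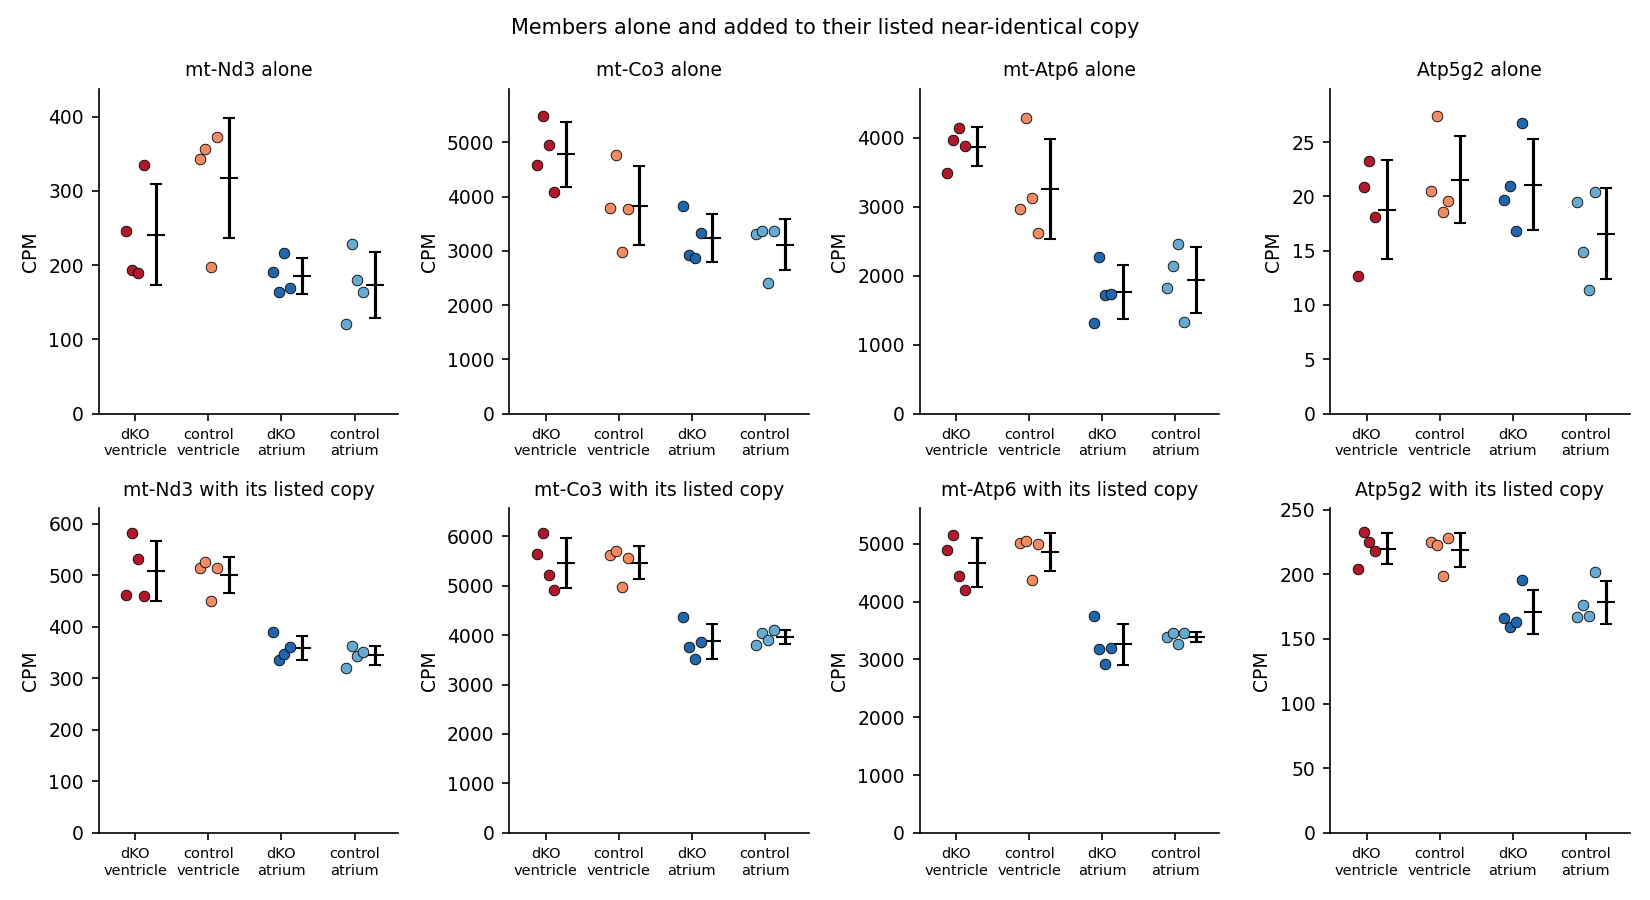
CPM of mt-Nd3, mt-Co3, mt-Atp6 and Atp5g2 in each library, alone above and added to the listed near-identical copy below, with the mean and SD (n = 4) beside the points. Chambers that overlap for mt-Nd3, mt-Co3 and Atp5g2 alone no longer do so in control embryos once the copy is added, except for Atp5g2, where 199 CPM in a ventricle meets 202 CPM in an atrium.

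A shared stretch also links neighbouring mitochondrial genes. The last 43 bases of mt-Atp8 are the first 43 of mt-Atp6 (GRCm38, plus strand), and reads from this stretch, printed with the start codon of mt-Atp6 in capitals, belong to both.
mt-Atp8 and mt-Atp6, chrM:7927-7969, plus strand: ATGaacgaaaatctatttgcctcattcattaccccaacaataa

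In dKO atria 1 of the 95 members was called, Ndufa11, which was lower, against 7.47% of all genes tested (3.43% lower). Ndufa11, an accessory subunit that helps to hold the membrane arm of complex I together, had 74.3, 75.0, 71.8 and 82.5 CPM in dKO atria, against 89.8, 93.6, 83.4 and 108 CPM in control atria. The groups did not overlap, and the log2 difference was -0.30 ± 0.08 (SE; limma adjusted p = 0.0448). The call was lost, with adjusted p between 0.0767 and 0.122, when any of 6 embryos was left out (control embryos 1, 2 and 4 and dKO embryos 1, 2 and 3), and adjusted p was 0.0691 with the title number as a covariate and 0.062 without a filter on low genes. Exons of Ndufa11 overlap those of Vmac on the opposite strand. In ventricles Ndufa11 had 90.7, 97.8, 92.0 and 98.0 CPM in dKO embryos, against 94.3, 108, 97.1 and 107 CPM in control embryos, with overlap.

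The other members differed little in atria, with most values on the lower side. The difference was negative for 86 of 95 members, against 51.2% of all genes tested, with a median of -0.13 for nuclear and -0.11 for mitochondrial members and of -0.02 for all genes that averaged 20 CPM or more. The nuclear median was -0.07 without control embryo 4, and the mitochondrial median was -0.17 without dKO embryo 1, -0.06 without dKO embryo 3 and -0.07 without control embryo 3. An unadjusted p under 0.05 was reached by 25 members, all of them nuclear, and by 20.3% of all genes. Groups did not overlap for 6 members, all lower, against 6.82% of all genes. Medians by complex were -0.11 for complex I, -0.16 for complex II, -0.13 for complex III, -0.09 for complex IV and -0.14 for complex V, a range narrower than the SE of most single genes.

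Next after Ndufa11 by p stood Uqcr11, Uqcrc1 and Sdha, none of them called by limma, although DESeq2 called all 3 (adjusted p = 0.0364, 0.0232 and 0.0325) and limma called Uqcr11 without dKO embryo 4 (adjusted p = 0.0207). Uqcr11, a small subunit of complex III, had 88.2, 91.9, 97 and 107 CPM in dKO atria, against 107, 111, 107 and 123 CPM in control atria (log2 difference -0.22 ± 0.07, limma adjusted p = 0.0947). Uqcrc1 had 235, 223, 232 and 221 CPM in dKO atria, against 246, 264, 242 and 284 CPM in control atria (-0.18 ± 0.06, adjusted p = 0.100). Sdha had 294, 286, 305 and 266 CPM in dKO atria, against 320, 333, 304 and 347 CPM in control atria (-0.18 ± 0.06, adjusted p = 0.119). Uqcrc1 did not overlap between genotypes, and Uqcr11 and Sdha met at their edges. Positive values were few, with Cox6b2 highest at 0.43 ± 0.16 (adjusted p = 0.140), a gene near 5 CPM. The 13 mitochondrial members lay between -0.17 (mt-Nd1) and 0.12 (mt-Nd3), and none had an unadjusted p under 0.05.

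**Figure D5:**
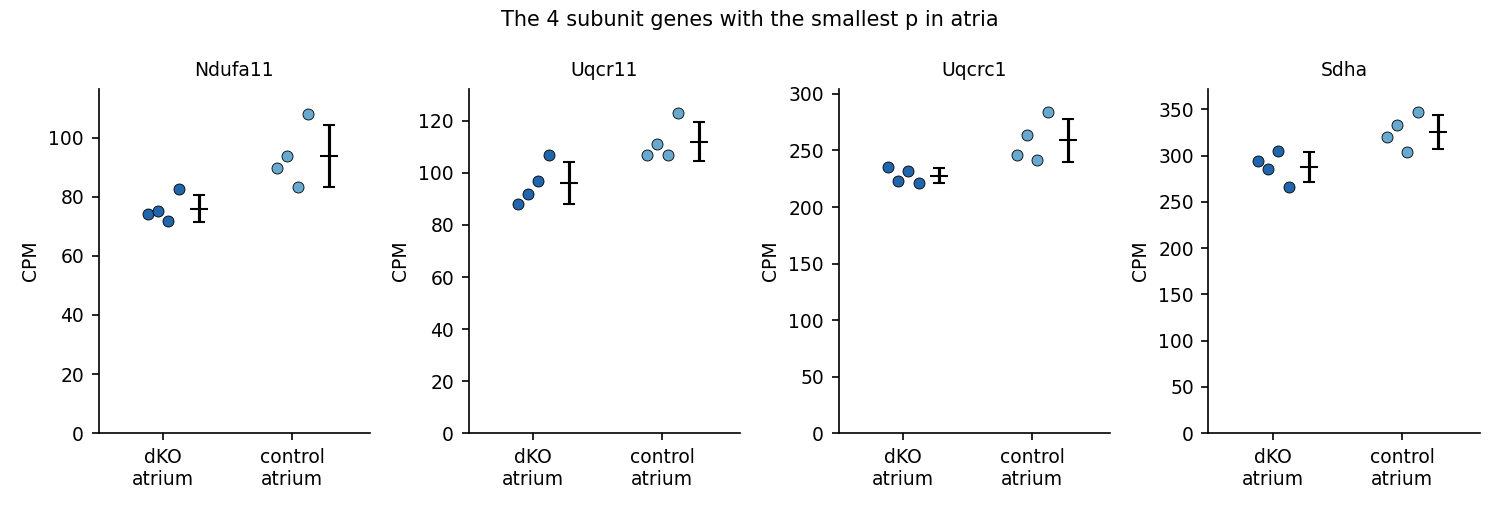
CPM in dKO and control atria of the 4 members with the smallest p in that comparison, with the mean and SD (n = 4) beside the points. Ndufa11 and Uqcrc1 do not overlap between genotypes, and only Ndufa11 passed a limma adjusted p of 0.05, while DESeq2 called all 4.

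The count of called members in atria depended on the embryos and the tool. It was 12, all lower, without dKO embryo 4, where 1201 of all 13950 genes were called. It was 0 without any of control embryos 1, 2 and 4 or dKO embryos 1, 2 and 3, with 695 to 1071 of all genes. Without control embryo 3 it was 2, with 839 of all genes. DESeq2 on recovered reads called 9, all lower, and 1546 of all genes. Within the title number that holds 2 embryos of each genotype, 7 were called, all lower, and 944 of all genes. The main fit called 1042 of all genes. The summed nuclear members were 13880, 13485, 14030 and 14921 CPM in dKO atria, against 15019, 15339, 14444 and 16792 CPM in control atria, and only dKO embryo 4 reached into the control range. The mitochondrial sum was 33881, 30534, 28177 and 30499 CPM in dKO atria, against 32599, 32977, 32903 and 32348 CPM in control atria, and dKO embryo 1 lay above all controls. Markers of other cells differed in the same atria. Of the smooth muscle and pericyte markers 4 of 7 were called higher (summed level 1030 to 1444 CPM in dKO atria and 745 to 869 CPM in control atria), as were 2 of 9 fibroblast markers (6202 to 10356 CPM and 5369 to 7195 CPM), and 3 of 12 myocyte markers were called lower (21897 to 24119 CPM and 25326 to 29257 CPM). Epicardial markers were called higher for 1 of 7, with all 7 positive (median 0.20), and their summed level lay between 418 and 502 CPM in dKO atria and between 338 and 408 CPM in control atria, without overlap. Of 8 macrophage markers 1 was called higher, of 8 endothelial markers 1 lower, and none of the 8 erythroid and 4 tested neural and glial markers was called. The part of these cells in the member values was not tested.

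In dKO ventricles none of the 95 members was called by limma, against 2% of all genes tested, and 9 had an unadjusted p under 0.05, against 12.8% of all genes. DESeq2 called 1, Cox6a1, and edgeR called 0. The median was -0.07 for nuclear members and 0.00 for mitochondrial members, against -0.02 for all genes, and 76 of 95 members were negative, against 56.4% of all genes. The nuclear median was -0.12 without dKO embryo 2 and -0.04 without dKO embryo 1, and the mitochondrial median lay between -0.03 and 0.04 with each embryo left out. The summed nuclear members were 19121, 22484, 20147 and 19891 CPM in dKO ventricles, against 21014, 22070, 20494 and 22145 CPM in control ventricles. dKO embryo 2 lay above all controls and the other dKO embryos below them. Cox6a1 had 234, 234, 220 and 228 CPM in dKO ventricles, against 244, 250, 278 and 275 CPM in control ventricles. It was the only 1 of the 95 members without overlap between genotypes, where 4.78% of all genes did not overlap on the lower side. Its log2 difference was -0.19 ± 0.05 (limma adjusted p = 0.0895). Its partner Cox6a2 had 140, 161, 138 and 144 CPM in dKO ventricles, against 126, 130, 122 and 141 CPM in control ventricles, with overlap (0.16 ± 0.06, adjusted p = 0.242). The share of Cox6a2 in the pair lay between 38.1% and 41.5% in dKO ventricles and between 31.1% and 34.9% in control ventricles, and no test was made of this ratio, which was seen in the data.

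The remaining ventricular members by p were Ndufb10 (-0.18 ± 0.06, adjusted p = 0.183), an accessory subunit of complex I, and Ndufs6 (-0.15 ± 0.06, adjusted p = 0.301). Without dKO embryo 2, Ndufb10 was called (-0.23, limma adjusted p = 0.0390). The mitochondrial members ranged between -0.39 (mt-Nd3) and 0.33 (mt-Co3), both of them genes with listed copies. Members without listed copies lay closer to 0, with mt-Nd1 at -0.05 ± 0.08, mt-Cytb at 0.03 ± 0.08 and mt-Nd5 at 0.00 ± 0.07, as did mt-Co1, which has listed copies, at -0.01 ± 0.11. The mitochondrial sum divided by the nuclear sum was 2.66, 2.38, 2.39 and 2.28 in dKO ventricles, against 2.18, 2.29, 2.17 and 2.19 in control ventricles. With the listed copies of both sets added it was 2.79, 2.43, 2.40 and 2.32 in dKO ventricles, against 2.45, 2.41, 2.32 and 2.39 in control ventricles, and the overlap was then wider.

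The dKO effect on the members did not pass the test of a difference between chambers. None of the 95 was called by limma in that contrast, against 2.64% of all genes tested, and 4 had an unadjusted p under 0.05, against 13.4% of all genes; DESeq2 and edgeR called 0. The smallest p-values belonged to Ndufa11 (0.20, limma adjusted p = 0.347), Cox6a2 (0.21, adjusted p = 0.351), Atp5g2 (-0.55, adjusted p = 0.355) and Ndufb4 (0.37, adjusted p = 0.369). With its copy added, Atp5g2 stood at 0.07. On simulated data with 200 changed genes this contrast found 24% of those set to differ by 0.5 on the log2 scale, and the atrial and ventricular tests 75% and 67%, and smaller changes were not simulated.

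Genes that serve the same system were described alongside, and their counts are to be read against the 46.9% of all genes called between chambers, 7.47% in dKO atria and 2% in dKO ventricles. All 13 tricarboxylic acid cycle genes were called higher in control ventricles (median 0.47), as were 56 of 79 tested mitochondrial ribosome genes with 1 lower (median 0.30), 23 of 43 assembly factors (median 0.24) and 12 of 14 regulators of nuclear subunit genes (median 0.37). Of 16 genes for the upkeep and transcription of mitochondrial DNA, 6 were called higher and 1 lower (median 0.11). The shares called in either direction were 53.5% for assembly factors and 43.8% for mitochondrial DNA upkeep, near that of all genes. The called assembly factors were all higher, however, where 26.4% of all genes were called higher. In dKO atria, 4 mitochondrial ribosome genes, 1 regulator and 1 gene of mitochondrial DNA upkeep were called lower, or 5.06%, 7.14% and 6.25% of these lists, and no assembly factor and no cycle gene was called. In dKO ventricles no gene of these 5 lists was called. Exons of 20 of the 82 nuclear members overlap a gene on the opposite strand, among them Atp5a1, Cox4i1, Ndufs1 and Ndufs6, and their values are less certain while it is unknown whether counting used the strand.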

How the data were processed

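RNA of 16 libraries, 4 each of dKO ventricles, control ventricles, dKO atria and control atria, was sequenced as 60-base single reads, per the labels' protocols. Adapter trimming with cutadapt and quantification with RSEM 1.3.1 on GRCm38 are named in the submitters' processing notes. The values deposited by the authors are CPM on a linear scale. How they were normalized and filtered, the annotation release and whether counting used the strand: not given in the sources used here. In each library 100% of values were whole reads plus an offset times 1 step (tolerance 0.001 reads), which gave the depth. Intervals and floors cover counting error only.

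Differences were tested with limma 3.58.1 (R 4.3.3) on log2(CPM + 1), with a mean-variance trend, over the 13950 of 16118 genes that averaged 1 CPM or more, and p-values were adjusted over all of them by Benjamini-Hochberg. The pseudocount shrinks the fold of low genes. Knockout effects were fitted within each chamber over 8 libraries. Chamber differences and the difference of knockout effects were fitted over all 16 libraries, with the embryo as a random block since both chambers came from 1 animal (correlation 0.108). Replicate numbers do not pair knockout with control embryos. The genes named were up to 12 called members each way with the smallest adjusted p (the 4 with the smallest p where fewer than 4 were called), all mt- members, the Cox4i, Cox6a, Cox6b, Cox7a, Cox8 and Atp5g isoforms and the 2 members of each complex with the highest mean CPM. Others, such as Uqcrb, Uqcrfs1 and Sdhc, were chosen after their values were seen. The members and lists were chosen with earlier results of these data known.

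Alternatives were pseudocounts of 0.5 and 5, no filter, a mean of 5 CPM, scaling to nuclear genes or by TMM, the title number as a covariate, the title number with 2 embryos of each genotype alone, no embryo block, control libraries alone, and each embryo left out in turn. On the recovered reads, edgeR 4.0.16 called 1031 genes in dKO atria, 259 in dKO ventricles and 6272 between chambers, and DESeq2 1.42.0 called 1546, 469 and 5700. Near-identical copies were found with blastn 2.17.0 and added as an alternative chosen after the data were seen. The limma test was tested on simulated counts. Exon lengths, merged over all transcripts of a gene, and overlaps came from GENCODE M21, promoters from RefSeq. The values of 1 member are not reported here.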

Additional observations from a re-analysis of the deposited data

Results flagged for a closer look

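Among 46 named genes and the summed levels, 196 groups of 4 libraries were examined for a library far from the other 3, and 12 groups had one. Chance alone marks about 1 in 20 groups.

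The shallowest library, dKO ventricle 2, stood above the other dKO ventricles for 3 nuclear genes. Cox4i1 had 595 CPM there and 516 to 528 CPM in the others, Cyc1 had 371 CPM and 315 to 323 CPM, and Sdhb had 287 CPM and 239 to 247 CPM. The shift was not limited to these genes. The summed nuclear members were 22484 CPM in dKO ventricle 2 and 19121, 20147 and 19891 CPM in the other dKO ventricles, a gap the rule did not flag. dKO atrium 4 stood above the other dKO atria for Cox6a1, with 149 CPM and 127 to 129 CPM in the others, and for Ndufs6, with 54.6 CPM and 47.2 to 47.6 CPM. It stood below them for Ndufs1, with 234 CPM and 263 to 268 CPM in the others. Cox4i1 was high in control atrium 4, at 467 CPM and 387 to 399 CPM in the others, and Cox7a2 was low in control ventricle 3, at 140 CPM and 188 to 196 CPM in the others.

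Among mitochondrial genes, mt-Nd3 was low in control ventricle 3, at 197 CPM and 343 to 373 CPM in the others, and its copy Gm28438 was highest in the same library of that group, at 252 CPM. mt-Co3 was low in control atrium 3, at 2410 CPM and 3313 to 3374 CPM in the others, and its copy Gm28437 was highest there, at 1486 CPM. mt-Nd4 was high in control atrium 3, at 2785 CPM and 2673 to 2692 CPM in the others. The mitochondrial sum over the nuclear sum was 2.29 in control ventricle 2 and 2.17 to 2.19 in the other control ventricles.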

How the results depend on the processing

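Among counts and medians under the alternatives, 280 values stayed within 1.5 times the count or 1 SD of the median reported, and 20 did not. This SD, of the mean log2 level of a library within groups, was 0.094 for nuclear and 0.0832 for mitochondrial members. The knockout medians were of about that size or smaller, so the count of 280 does not show that they are stable. In dKO atria, where 1 member was called, 9 were called by DESeq2, 0 without a filter, 7 within the title number with 2 embryos of each genotype, 2 with the title number as a covariate, and 0 to 12 with each embryo left out in turn. Over all genes the atrial count of 1042 was 1546, 946, 944 and 1392 under the first 4 of these alternatives. It was 695 to 1201 with an embryo left out. In dKO ventricles, where 0 members were called, 1 was called by DESeq2, 1 within that title number, and 0 to 1 with each embryo left out (1 without dKO embryo 2). Over all genes the ventricular count of 279 was 469 by DESeq2, 79 within it and 187 to 261 with an embryo left out. For the difference of effects the count of 368 was 238 without dKO embryo 3, 241 without control embryo 4, and 238 to 470 over all embryos left out. Between chambers 70 to 82 members were called under all alternatives, 77 with no replicate block, and the mitochondrial median of 0.51 was 0.42 when libraries were scaled to nuclear genes. That scaling also moved the share of calls that were higher to 60.4% in dKO ventricles, where it was 49.5%, and to 60.5% for the difference of effects, where it was 49.7%, while the median of all genes moved by less than 0.1.

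Of the values of single genes, 997 kept direction and side of the threshold, 9 lost and 8 gained a call, and 6 reversed. Cox7a1 between chambers was -0.00 by edgeR, -0.05 when scaled to nuclear genes, -0.05 without control embryo 1 and -0.01 without control embryo 2 (-0.05 to 0.15 with each embryo left out), Cox7a2l was -0.04 when scaled to nuclear genes, and Atp5g2 was 0.07 for the difference of effects with its copy added. The cause of these shifts was not tested. The replicate numbers do not tie dKO to control embryos, so the genotypes were not paired by number, and the title number as a covariate was the block the labels allowed. The alternative with copies was chosen after seeing the data, and its chamber count was 80. The lowest members rest on the fewest reads, and 3 reads were worth up to 0.312 CPM in the shallowest library, dKO ventricle 2.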

Other observations

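Gm15920, a copy of the complex I gene Ndufa12 over 402 aligned bases, had 113 to 228 reads (5.52 to 16.7 CPM) in the 8 libraries of the title number that holds 2 embryos of each genotype. It had 0 to 5 reads in the other 8 libraries. Ndufa12 itself had a coefficient of variation of 4.93% within groups, and its sum with the copy one of 7.64%. Both chambers of each of these 4 embryos showed the copy.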
